A study of Mus musculus with 12 samples.

Results

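Cadherins and protocadherins were followed across 4 populations of dermal fibroblasts from newborn mouse skin. The members are all genes whose symbol is Cdh and a number or begins with Pcdh, taken from probe sets that the array annotation pairs with 1 gene symbol. For a gene with several such probe sets, the probe set that was brightest on average over the 12 arrays stood for the gene. This gave 55 genes of the 17097 genes on the array, drawn from 89 of its 28898 single-symbol probe sets. By structural class they were 5 type I classical cadherins, 9 type II classical cadherins, 5 atypical cadherins, 9 delta protocadherins, 3 other non-clustered protocadherins, 2 genes of the alpha protocadherin cluster and 22 of the beta cluster.

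The cells came from 3 female littermates, labelled NB1, NB2 and NB3, at 2 days of age, and each animal gave 1 array per population. Fibroblasts were sorted after collagenase digestion of skin without its subdermal layer, as cells carrying Pdgfra and CD34 and lacking CD45, CD117, CD31 and EpCam. The populations were then split on surface proteins into CD26+ papillary cells without Dlk1 or Sca1, Dlk1+ reticular cells without CD26 or Sca1, and a pair of pre-adipogenic populations without CD26, of which one was Dlk1+ Sca1+ and the other Dlk1- Sca1+. RNA of 4500 cells per sample was amplified over 21 cycles before hybridization, which can compress differences between populations. The animals carried no treatment or allele that the labels name. Levels are log2 RMA values (background-corrected, quantile-normalized array signal), and values of 3 arrays are given in the order NB1, NB2, NB3. A difference of 1 on this scale is a doubling, and a dim gene's difference is understated. A gene was called where limma's moderated test gave a Benjamini-Hochberg adjusted p under 0.05 over all 17097 genes, and all adjusted p-values below come from that fit unless another is named.

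Transcripts of the sorting proteins were compared with the gates. Dpp4, which encodes CD26, was at 10.18 to 10.97 in the papillary arrays and at 6.10 to 6.53 in all others. Dlk1 was at 12.82 to 13.04 in both Dlk1+ populations, at 11.18 to 11.54 in Dlk1- Sca1+ cells and at 9.82 to 10.10 in papillary cells, so its transcript was far above the array median also in the populations sorted without the protein. Sca1 (Ly6a) was not analysed here. The fibroblast genes Col1a1 (13.06 to 13.16) and Dcn (12.67 to 12.85) were high on every array. Array medians were 6.21 to 6.34, and arrays of the same population correlated at 0.9885 to 0.9954 across genes. The Dlk1- Sca1+ array of NB1 stood apart in keratinocyte genes, as described with Cdh1. In sorted bulk RNA, fewer cells of a type and less RNA per cell cannot be told apart.

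Classical cadherins are calcium-dependent adhesion proteins whose outer domains bind cadherins on the neighbouring cell, while their cytoplasmic tails hold beta-catenin and p120-catenin and, through alpha-catenin, the actin cytoskeleton. Type I members such as E- and N-cadherin carry a conserved adhesion motif in the outermost domain that type II members lack, and the cadherin mix of a cell is known to guide how it sorts from its neighbours. Protocadherins share the cadherin repeats but do not engage catenins in the classical way. The delta protocadherins act in adhesion, cell movement and signalling, and the clustered genes are best known for giving neurons a surface identity. In skin, E- and P-cadherin belong to the epidermis, VE-cadherin to vessels, and N-cadherin and cadherin 11 to mesenchymal cells, including fibroblasts.

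Members that set 1 population apart from all the others are shown first by the sequence ahead of their transcription start, where the RefSeq promoter table held an entry. Of the 55 members, 19 had an entry, among them 9 of the 17 that differed between the populations by the F-test. The 5 promoters below are those of Cdh26, called highest in Dlk1- Sca1+ cells, Cdh6 and Pcdh10, called highest in papillary cells, and Pcdh7 and Pcdh19, called lowest in papillary cells. Each is the 250 bases before the start in GRCm38.p6, in the direction of transcription. Capitals mark any E-box (CANNTG, read on both strands as it equals its own complement pattern). Twist, Snail and Zeb proteins and Tcf4 bind forms of this broad motif, and which of them could bind a marked stretch was not assessed. The windows are chr2:178430265-178430514 on the plus strand for Cdh26, chr15:13173676-13173925 on the minus strand for Cdh6, chr3:45378148-45378397 on the plus strand for Pcdh10, chr5:57717831-57718080 on the plus strand for Pcdh7 and chrX:133688994-133689243 on the minus strand for Pcdh19.
Cdh26: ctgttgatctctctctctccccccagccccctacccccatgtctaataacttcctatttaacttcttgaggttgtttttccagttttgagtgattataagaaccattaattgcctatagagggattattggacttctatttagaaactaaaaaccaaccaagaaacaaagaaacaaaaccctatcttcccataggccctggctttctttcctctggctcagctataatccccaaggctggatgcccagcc
Cdh6: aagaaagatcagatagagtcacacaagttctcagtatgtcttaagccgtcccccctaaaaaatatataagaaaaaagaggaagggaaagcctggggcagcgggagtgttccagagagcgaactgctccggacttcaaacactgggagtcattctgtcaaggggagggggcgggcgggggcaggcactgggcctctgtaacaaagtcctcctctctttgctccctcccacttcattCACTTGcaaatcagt
Pcdh10: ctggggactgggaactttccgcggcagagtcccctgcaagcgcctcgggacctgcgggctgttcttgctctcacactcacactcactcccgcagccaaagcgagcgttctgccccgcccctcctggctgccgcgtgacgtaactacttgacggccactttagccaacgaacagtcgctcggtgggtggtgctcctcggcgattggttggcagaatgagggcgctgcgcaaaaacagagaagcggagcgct
Pcdh7: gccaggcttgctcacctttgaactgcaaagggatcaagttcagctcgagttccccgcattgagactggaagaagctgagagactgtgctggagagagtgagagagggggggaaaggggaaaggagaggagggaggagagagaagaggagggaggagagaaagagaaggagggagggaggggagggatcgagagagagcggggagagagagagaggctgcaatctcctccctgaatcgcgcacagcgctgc
Pcdh19: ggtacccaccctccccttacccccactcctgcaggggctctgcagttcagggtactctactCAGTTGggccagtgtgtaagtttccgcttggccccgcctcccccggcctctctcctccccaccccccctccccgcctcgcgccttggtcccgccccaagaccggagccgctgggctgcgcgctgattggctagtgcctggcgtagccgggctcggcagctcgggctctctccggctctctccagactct

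The Cdh6 window held 1 E-box at position -15, where -1 is the last base before the start, and the Pcdh19 window held 1 at position -189. The other windows held no such letters. Of all 32851 promoters in the table, 66.2% held an E-box in the same window, so both states are common. CpG pairs numbered 0 in the Cdh26 window, 6 in that of Cdh6, 7 in that of Pcdh7, 16 in that of Pcdh19 and 22 in that of Pcdh10, against a median of 6 over all promoters. GC content was 42.8% for Cdh26, 51.2% for Cdh6, 58.4% for Pcdh7, 63.2% for Pcdh10 and 69.2% for Pcdh19, with a median of 52.4%. Factor binding was not measured.

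The F-test over the 4 populations called 17 of the 55 members, or 30.9%, where 35.7% of all genes were called, so the family as a whole was near the background of these cells. Of the 12 members with a mean above the median of all genes (6.75), 10 were called by the F-test. Bright genes were called more often over the whole array too. In a fit of only the genes above that median, 46.8% were called between papillary and reticular cells, beside 27.5% in the main fit. Their share by the F-test was not computed. Of the 19 members called in at least 1 pair of populations, 9 had means below that median. The other 36 members passed the test in no pair. Of these 36, 7 had an unadjusted p under 0.05 in at least 1 pair, and with the animal as a block in the model 24 members rather than 19 were called in at least 1 pair. The block also raised the share of all genes called in every pair, as given at the end. Calls were spread unevenly over the classes. They took in 6 of 9 delta protocadherins, 2 of 5 type I, 2 of 9 type II and 2 of 5 atypical cadherins, 1 of the 3 other non-clustered protocadherins, 4 of 22 beta-cluster genes and none of the 2 alpha-cluster genes.

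**Figure D1:**
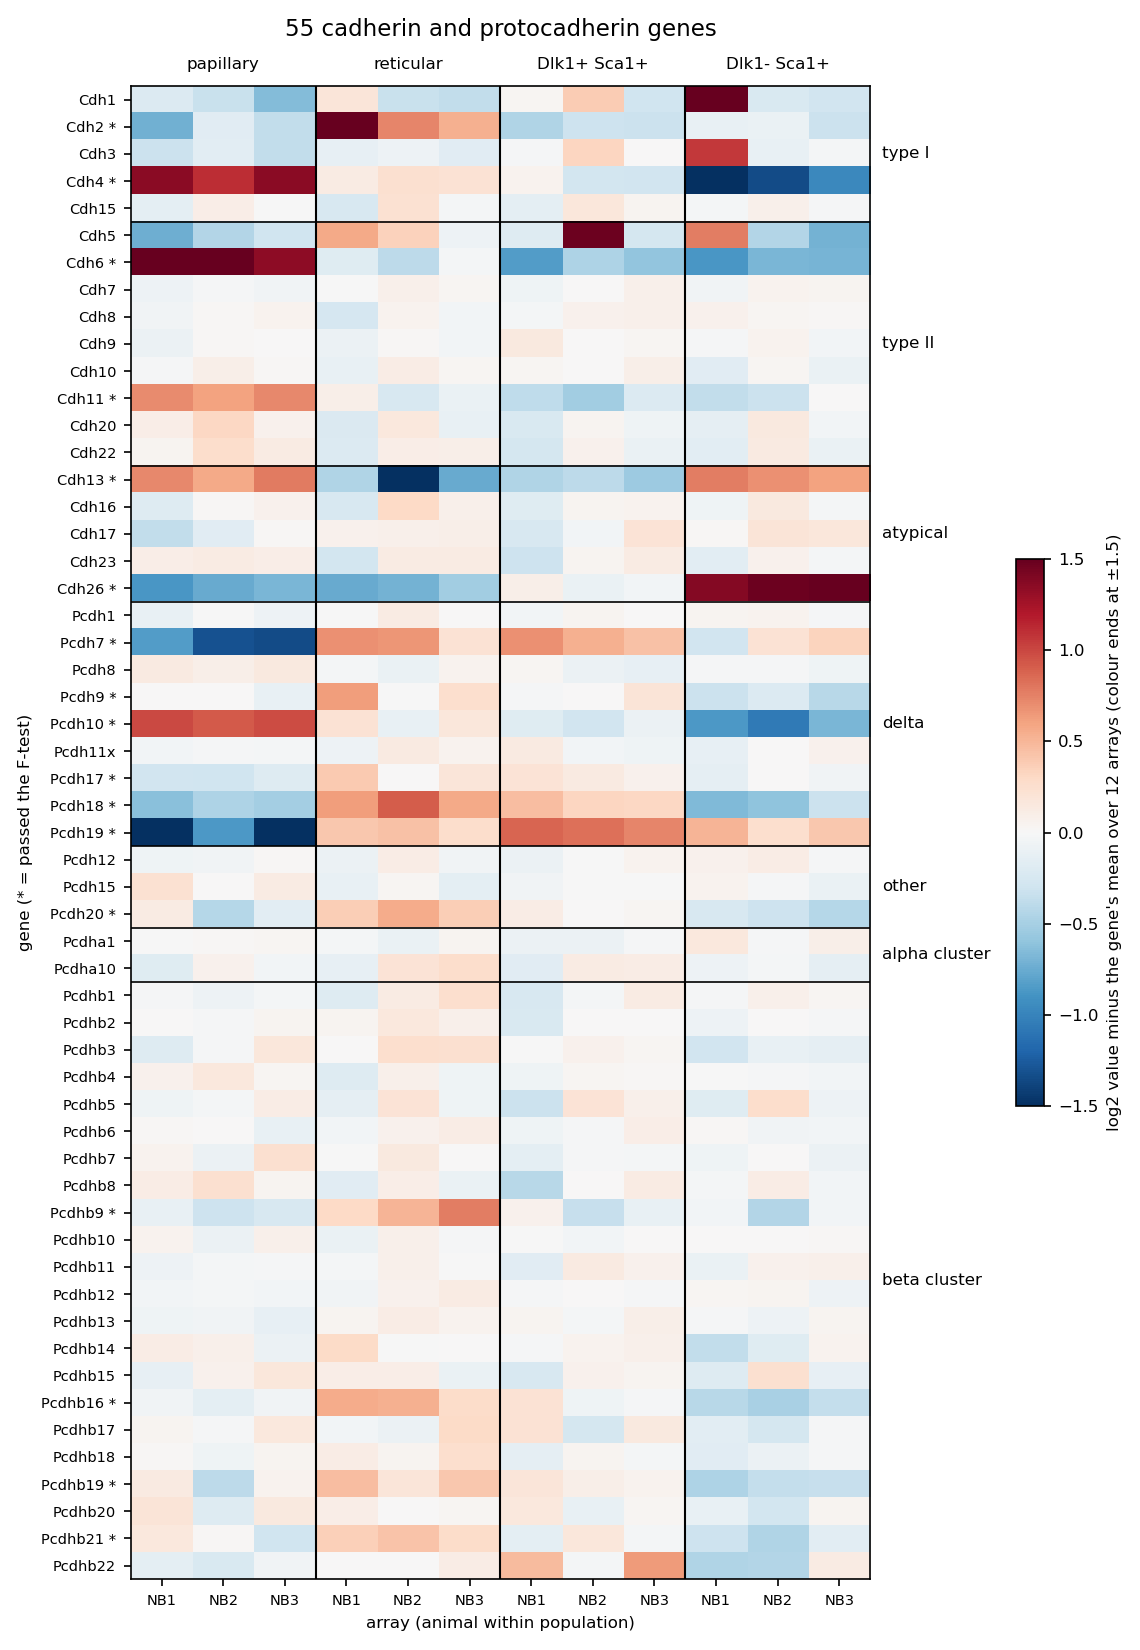
Level of each of the 55 members on each of the 12 arrays as the log2 difference from that gene's mean over all arrays, with arrays in columns grouped by population and members in rows grouped by class. Colour ends at 1.5 in either direction and an asterisk marks the 17 members called by the F-test, which form the strong blocks, most of them among the delta protocadherins and the brighter classical cadherins.

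Papillary against reticular cells gave the most calls, 15 of 55 members, with 5 higher and 10 lower in papillary cells, where 27.5% of all genes were called (13.9% higher and 13.6% lower). Papillary against Dlk1+ Sca1+ cells gave 11 (5 higher and 6 lower, where 28% of all genes were called), and papillary against Dlk1- Sca1+ cells gave 8 (5 higher and 3 lower, where 26.4% of all genes were called). These comparisons share the papillary arrays. Between the reticular and Dlk1+ Sca1+ populations only 4 members were called, 1 higher and 3 lower in Dlk1+ Sca1+ cells (8.43% of all genes were called, 4.06% higher and 4.37% lower). That count was 2 without NB2, without NB3 or without the NB2 Dlk1+ Sca1+ array, and 6 with the animal as a block. The share of all genes called moved as well, to 3.91%, 2.91%, 6.57% and 12.5% in these fits, in that order.

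Dlk1- Sca1+ cells stood below reticular cells in 12 members and above them in 2, a total of 14 where 18.2% of all genes were called. In that comparison 21.8% of members were called lower, against 8.8% of all genes, and 3.64% higher, against 9.36% of all genes. Against Dlk1+ Sca1+ cells they were lower in 6 members and higher in 2, where 7.36% of all genes were called. There 10.9% of members and 4.13% of all genes were called lower, and 3.64% of members and 3.23% of all genes higher. That count of 8 was 5 without NB1 and 4 without NB3. The share of all genes called fell as well, to 3.72% and 3.11% in these fits. The median difference over the 55 members was -0.06 between Dlk1- Sca1+ and reticular cells, beside -0.01 over all genes, so the bulk of the family was not displaced by much. Of the 60 called pairs of a member and a comparison, the arrays did not overlap in 59. With 3 arrays per population a call tends to require this, so the count adds no support. The share over all called genes was not computed.

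**Figure D2:**
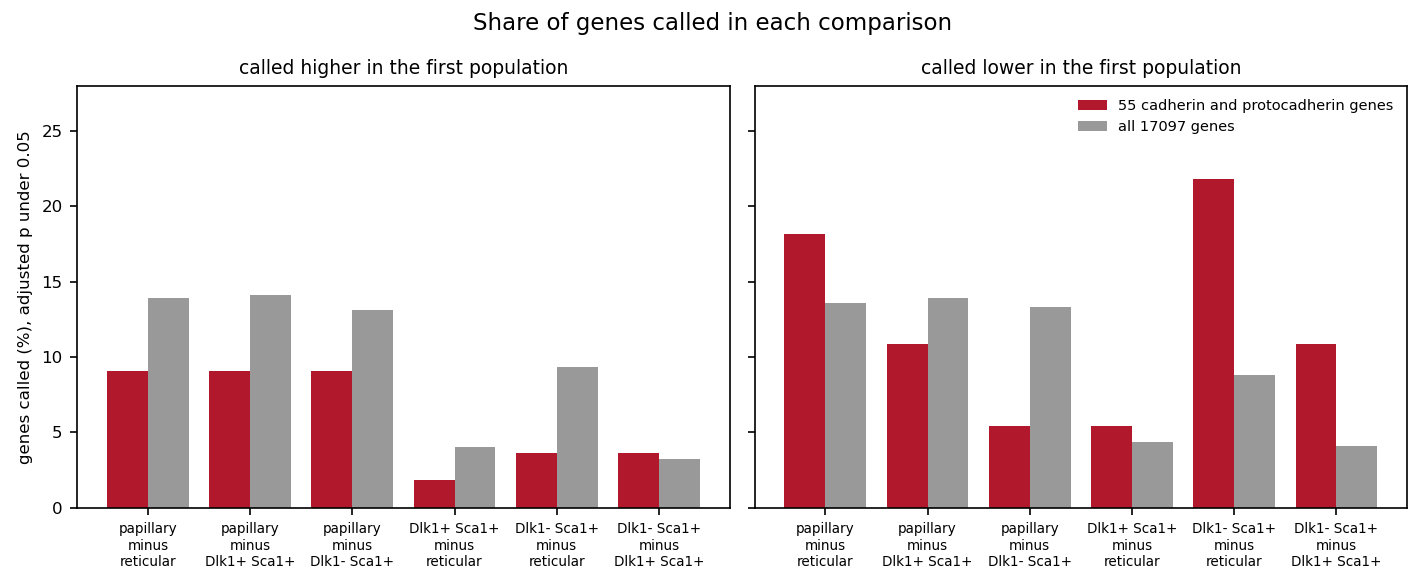
Percent of the 55 members and of all 17097 genes called higher or lower at an adjusted p under 0.05 in each of the 6 comparisons, as bars from 0. Members sit above all genes for calls lower in Dlk1- Sca1+ than in reticular cells (21.8% against 8.8%) and below all genes for most calls in the higher direction.

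Among type I cadherins, Cdh2 (N-cadherin, the usual classical cadherin of mesenchyme and muscle) was a reticular gene in these data. Its level was 7.90, 7.04 and 6.84 in reticular cells, 5.59, 6.14 and 5.94 in papillary cells, 5.85, 6.0 and 5.98 in Dlk1+ Sca1+ cells and 6.20, 6.21 and 5.98 in Dlk1- Sca1+ cells. Every reticular array lay above the other 9, and those 9 overlapped. Cdh2 was 2.58-fold lower in papillary than in reticular cells (log2 difference -1.37 ± 0.22 SE, adjusted p = 0.000359), 2.49-fold lower in Dlk1+ Sca1+ cells (adjusted p = 0.00206) and 2.19-fold lower in Dlk1- Sca1+ cells (adjusted p = 0.00279). Without NB1, whose reticular array was the highest, papillary minus reticular cells was -0.90 (adjusted p = 0.000668).

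Reticular arrays also carried the most transcript of muscle and pericyte genes, cell types in which N-cadherin is known to be made. The summed linear level of 15 skeletal muscle genes was 1347 to 1809 in reticular arrays, 979.2 to 1114 in Dlk1+ Sca1+ arrays and 744.8 to 826 in the others, and 7 of the 15 were called lower and 1 higher in papillary than in reticular cells, where 13.6% and 13.9% of all genes were. The higher gene was Chrna1 (6.13 against 5.16, adjusted p = 0.000275). The contractile gene Tnnc2 was at 9.11, 8.72 and 8.31 in reticular cells and at 5.95 to 6.08 in papillary cells. The muscle regulators Pax7, Myf5 and Myog were between 3.68 and 5.36 everywhere. Myod1, another such regulator, was at 6.29 to 6.68 over the arrays (F-test adjusted p = 0.207). For 9 pericyte and smooth muscle genes the summed level was 2477 to 3787 in reticular arrays, 1502 to 2365 in Dlk1+ Sca1+ arrays, 1576 to 1647 in Dlk1- Sca1+ arrays and 810.4 to 946.3 in papillary arrays. Dlk1+ Sca1+ arrays lay between the reticular and papillary arrays on both sums, while their mean Cdh2 level (5.94 ± 0.08 SD, n = 3) was close to the papillary one (5.89 ± 0.28). The part of these cells in the Cdh2 level was not tested.

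Cdh4 (R-cadherin, first known from retina and brain) formed a graded series over the populations. It was at 10.01, 9.76 and 10.01 in papillary cells, 8.78, 8.90 and 8.87 in reticular cells, 8.71, 8.38 and 8.37 in Dlk1+ Sca1+ cells and 7.09, 7.32 and 7.69 in Dlk1- Sca1+ cells. No population overlapped another. Papillary cells were 2.11-fold above reticular cells (1.08 ± 0.14 SE, adjusted p = 6.72e-05) and 5.90-fold above Dlk1- Sca1+ cells (2.56 ± 0.14 SE, adjusted p = 2.23e-08), and Dlk1- Sca1+ cells were 2.17-fold below Dlk1+ Sca1+ cells (adjusted p = 0.000275). The step between the neighbours reticular and Dlk1+ Sca1+ was not called (-0.36, adjusted p = 0.163). Cdh4 was thus called both highest in papillary and lowest in Dlk1- Sca1+ cells.

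Cdh15 (M-cadherin, a cadherin of muscle precursors) gave the flattest profile among the classical cadherins described array by array. It was at 6.69, 6.94 and 6.83 in papillary cells, 6.59, 7.06 and 6.81 in reticular cells, 6.69, 7.0 and 6.88 in Dlk1+ Sca1+ cells and 6.80, 6.91 and 6.82 in Dlk1- Sca1+ cells. All populations overlapped, and no difference of means was over 0.04 in size.

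Cdh1 and Cdh3 (E- and P-cadherin, the epidermal classical cadherins) were each high on a single array. Cdh1 was at 6.84, 4.48 and 4.43 in Dlk1- Sca1+ cells, and at 4.51, 4.38 and 4.06 in papillary, 4.90, 4.38 and 4.35 in reticular and 4.74, 5.09 and 4.41 in Dlk1+ Sca1+ cells. The NB1 Dlk1- Sca1+ array stood alone, and the other 11 overlapped. Cdh1 was not called in any comparison, with -0.93 ± 0.48 (SE) for papillary minus Dlk1- Sca1+ cells (adjusted p = 0.204), and without that array the difference was -0.14 ± 0.20 (SE; adjusted p = 0.746). Against reticular cells, Dlk1- Sca1+ cells differed by 0.71 (adjusted p = 0.415) with the array and by -0.09 (adjusted p = 0.887) without it.

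Keratinocyte genes were highest on the same array. Of 22 keratinocyte genes measured, 20 had their highest level there, and their summed linear level was 18960, against 3841 and 3908 on the other arrays of its population, 3165 to 7226 in Dlk1+ Sca1+, 2475 to 6947 in reticular and 1852 to 5037 in papillary arrays. Krt5 (basal keratin) reached 12.10 there and 8.18 to 11.09 elsewhere, Dsp (desmoplakin) 11.43 against 6.19 to 10.11, and Epcam, whose protein was used to exclude epithelial cells, 8.62 against 5.62 to 6.73. The part of keratinocyte RNA in the Cdh1 level was not tested beyond leaving out the array.

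Cdh3 was at 7.79, 6.62 and 6.70 in Dlk1- Sca1+ cells, 6.41, 6.57 and 6.37 in papillary, 6.61, 6.66 and 6.56 in reticular and 6.72, 7.05 and 6.74 in Dlk1+ Sca1+ cells. Again the NB1 Dlk1- Sca1+ array was the highest, and all 3 Dlk1+ Sca1+ arrays lay above all papillary and reticular ones. With all arrays no comparison was called (papillary minus Dlk1- Sca1+ -0.59 ± 0.23 SE, adjusted p = 0.0869). Without that array the spread within populations shrank, the difference became -0.21 (adjusted p = 0.22), and papillary minus Dlk1+ Sca1+ cells went from an adjusted p of 0.277 to 0.00907 at the same size (-0.39). Without NB1 altogether it was -0.43 (adjusted p = 0.0366). Both fits kept the NB2 Dlk1+ Sca1+ array, where Cdh3 was at 7.05. Its keratinocyte sum of 7226 was above that of every array but the NB1 Dlk1- Sca1+ one. The sums were 3165 to 7226 in Dlk1+ Sca1+ and 1852 to 5037 in papillary arrays. The part of keratinocyte RNA in the Cdh3 level was not tested.

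**Figure D3:**
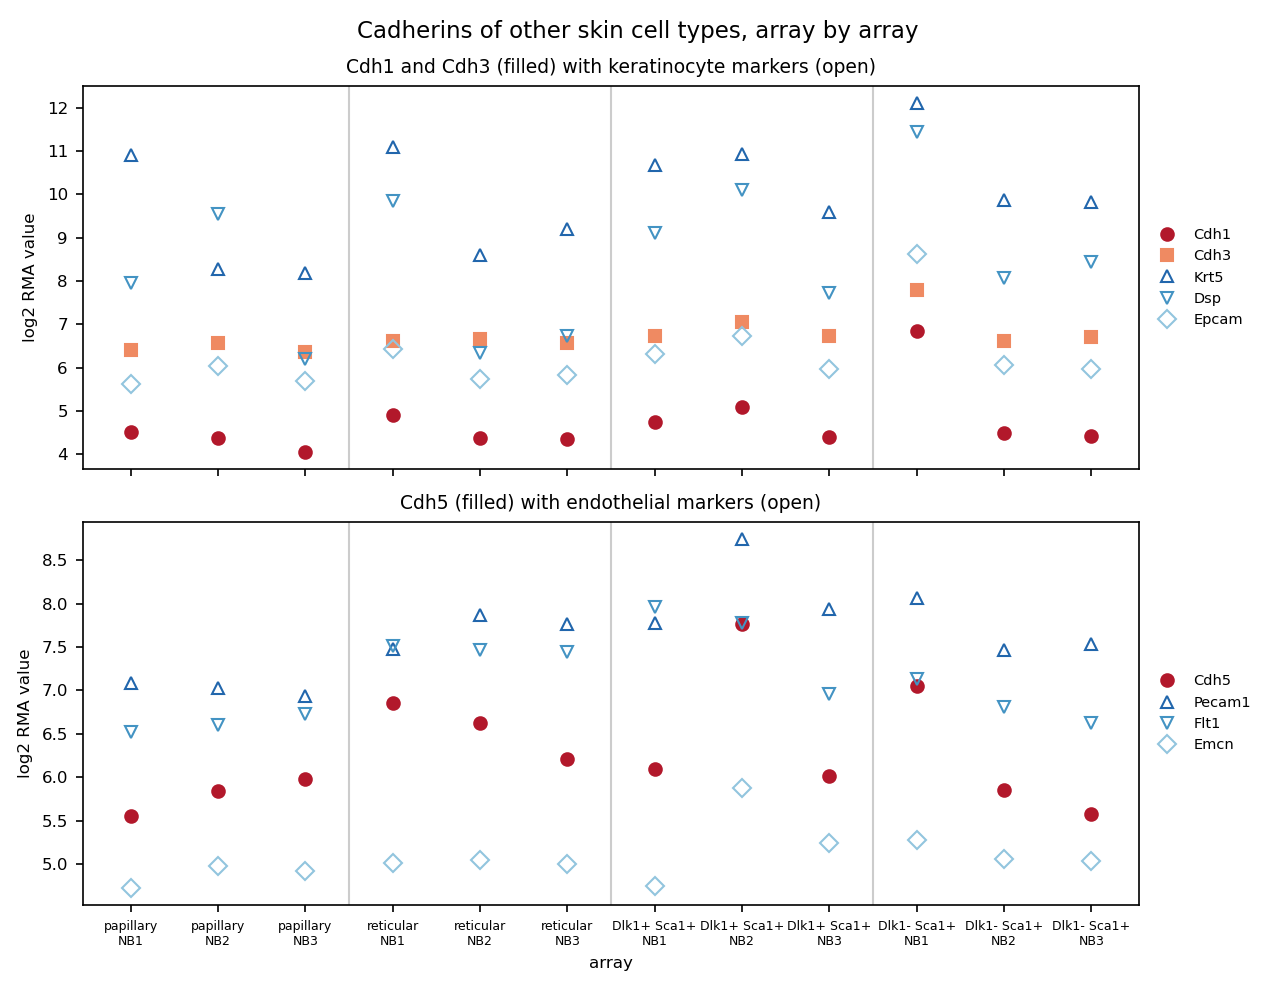
Log2 level on each of the 12 arrays of Cdh1, Cdh3 and Cdh5 (filled symbols) beside the keratinocyte genes Krt5, Dsp and Epcam and the endothelial genes Pecam1, Flt1 and Emcn (open symbols). Cdh1 and Cdh3 are highest on the NB1 Dlk1- Sca1+ array, as are the 3 keratinocyte genes. Cdh5 is highest on the NB2 Dlk1+ Sca1+ array, as are Pecam1 (8.74) and Emcn (5.88). Flt1 is highest on the NB1 Dlk1+ Sca1+ array (7.96, against 7.78 on that of NB2).

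Type II cadherins were led by the papillary genes Cdh6 and Cdh11. Cdh6 (K-cadherin, known from kidney and neural crest) was at 9.0, 8.70 and 8.49 in papillary cells, 6.97, 6.75 and 7.12 in reticular cells, 6.31, 6.68 and 6.56 in Dlk1+ Sca1+ cells and 6.27, 6.46 and 6.45 in Dlk1- Sca1+ cells. Papillary arrays lay well above the rest, and those of the pre-adipogenic populations overlapped each other. Cdh6 was 3.44-fold higher in papillary than in reticular cells (1.78 ± 0.14 SE, adjusted p = 6.46e-07), 4.64-fold higher than in Dlk1+ Sca1+ cells (adjusted p = 6.04e-08) and 5.05-fold higher than in Dlk1- Sca1+ cells (adjusted p = 4.17e-08). Below the papillary level, Dlk1- Sca1+ cells were also lower than reticular cells (-0.55, adjusted p = 0.0135). This smaller call was lost without NB3 (adjusted p = 0.114), without its reticular array (adjusted p = 0.0621) and without the NB1 Dlk1- Sca1+ array (adjusted p = 0.0522).

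Cdh11 (cadherin 11 or OB-cadherin, a main cadherin of mesenchymal cells) was at 10.83, 10.73 and 10.85 in papillary cells, 10.21, 9.89 and 10.03 in reticular cells, 9.75, 9.61 and 9.92 in Dlk1+ Sca1+ cells and 9.76, 9.80 and 10.13 in Dlk1- Sca1+ cells. Papillary arrays were apart from all others, and the other 3 populations overlapped in pairs. It was higher in papillary cells by 0.76 ± 0.12 (SE) over reticular cells (1.69-fold, adjusted p = 0.000255), by 1.04 over Dlk1+ Sca1+ cells (2.06-fold, adjusted p = 1.41e-05) and by 0.91 over Dlk1- Sca1+ cells (1.88-fold, adjusted p = 5.39e-05).

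Cdh5 (VE-cadherin, the cadherin of endothelial junctions) was at 6.09, 7.76 and 6.02 in Dlk1+ Sca1+ cells, 7.05, 5.85 and 5.58 in Dlk1- Sca1+, 6.85, 6.63 and 6.21 in reticular and 5.55, 5.84 and 5.98 in papillary cells. The NB2 Dlk1+ Sca1+ array was the highest, and the papillary arrays lay below all reticular and Dlk1+ Sca1+ ones. No comparison was called (papillary minus Dlk1+ Sca1+ -0.83 ± 0.43 SE, adjusted p = 0.198), and without that array the difference was -0.27 (adjusted p = 0.684). Of 18 endothelial genes, 6 were called lower in papillary than in reticular cells, and 6 lower and 1 higher against Dlk1+ Sca1+ cells, where 13.6% and 13.9% of all genes were called lower. Their mean log2 level was 6.89 on the NB2 Dlk1+ Sca1+ array, the highest of all, 6.53 to 6.72 on the other Dlk1+ arrays, 6.49 to 6.69 in Dlk1- Sca1+ and 6.24 to 6.34 in papillary arrays. That mean includes Tek, which went from 5.07 on the NB3 papillary array to 9.86 on the NB3 Dlk1- Sca1+ array. The mean was not computed without Tek, so its higher level in Dlk1- Sca1+ than in papillary arrays may rest largely on this gene. The summed linear level of the 18 genes was 9009 to 9544 over all arrays, most of it from Ramp2 (12.76 to 12.95). Of the 18 genes, 5 had their highest level on the NB2 Dlk1+ Sca1+ array. Another 4 were highest on the NB2 reticular, 4 on the NB3 Dlk1+ Sca1+ and 3 on the NB1 papillary array. Pecam1 was at 8.74 on the NB2 Dlk1+ Sca1+ array and at 6.94 to 8.06 elsewhere. The part of endothelial RNA was not tested beyond leaving out the array.

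The other type II members Cdh7, Cdh8, Cdh9, Cdh10, Cdh20 and Cdh22, mostly known from the nervous system, were called in no comparison. Cdh20 (6.51 to 7.05 over the arrays) and Cdh22 (6.23 to 6.76) were somewhat brighter in papillary cells on average, and with the animal as a block papillary minus Dlk1+ Sca1+ cells passed for both (0.24 each, adjusted p = 0.00967 and 0.0117). Cdh7, Cdh8, Cdh9 and Cdh10 lay between 4.03 and 5.01 on every array.

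Atypical cadherins held the member with the smallest adjusted p of any comparison. Cdh26, a cadherin described in epithelia, was at 7.29, 7.38 and 7.41 in Dlk1- Sca1+ cells, 6.0, 5.81 and 5.87 in Dlk1+ Sca1+ cells, 5.15, 5.20 and 5.39 in reticular cells and 5.04, 5.15 and 5.22 in papillary cells. The Dlk1- Sca1+ arrays lay above all others, the Dlk1+ Sca1+ arrays lay above the remaining ones, and reticular and papillary arrays overlapped. Cdh26 was 4.67-fold higher in Dlk1- Sca1+ than in papillary cells (papillary minus Dlk1- Sca1+ -2.22 ± 0.09 SE, adjusted p = 9.15e-10), 4.33-fold higher than in reticular cells (2.11, adjusted p = 9.75e-09) and 2.76-fold higher than in Dlk1+ Sca1+ cells (1.47, adjusted p = 1.03e-06). Dlk1+ Sca1+ cells were in turn 1.57-fold above reticular cells (adjusted p = 0.000394). Papillary minus reticular cells was -0.11, with a 95% confidence interval of -0.30 to 0.08. On the NB1 Dlk1- Sca1+ array, which was rich in keratinocyte genes, Cdh26 was at 7.29, close to 7.38 and 7.41 on the others of its population. The part of keratinocyte RNA in the Cdh26 level was not tested.

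Cdh13 (T-cadherin, a lipid-anchored cadherin without a cytoplasmic tail that binds adiponectin) paired the papillary with the Dlk1- Sca1+ population. It was at 9.45, 9.30 and 9.51 in papillary cells and at 9.49, 9.41 and 9.33 in Dlk1- Sca1+ cells, and at 8.27, 7.21 and 7.97 in reticular cells and 8.27, 8.33 and 8.18 in Dlk1+ Sca1+ cells. The populations sorted without Dlk1 overlapped each other and lay above the Dlk1+ ones, which also overlapped. Papillary cells were 3.04-fold above reticular cells (1.60 ± 0.19 SE, adjusted p = 3.52e-05) and 2.23-fold above Dlk1+ Sca1+ cells (adjusted p = 0.000486). Dlk1- Sca1+ cells were 3.02-fold above reticular cells (adjusted p = 8.16e-05) and 2.22-fold above Dlk1+ Sca1+ cells (adjusted p = 0.00252, and 0.0828 without NB3). Papillary minus Dlk1- Sca1+ cells was 0.01, with a 95% confidence interval of -0.41 to 0.43.

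The remaining atypical members were called in no comparison. Cdh16 (kidney cadherin) was at 6.63 to 7.17 and Cdh23, a part of the hair-cell tip link, at 5.78 to 6.22 over the 12 arrays. Cdh17 (liver-intestine cadherin) was at 3.95 to 4.52, and with the animal as a block it passed for papillary minus Dlk1- Sca1+ cells (-0.30, adjusted p = 0.0173, against 0.0787 without the block) and papillary minus reticular cells (-0.25, adjusted p = 0.0386, against 0.144).

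**Figure D4:**
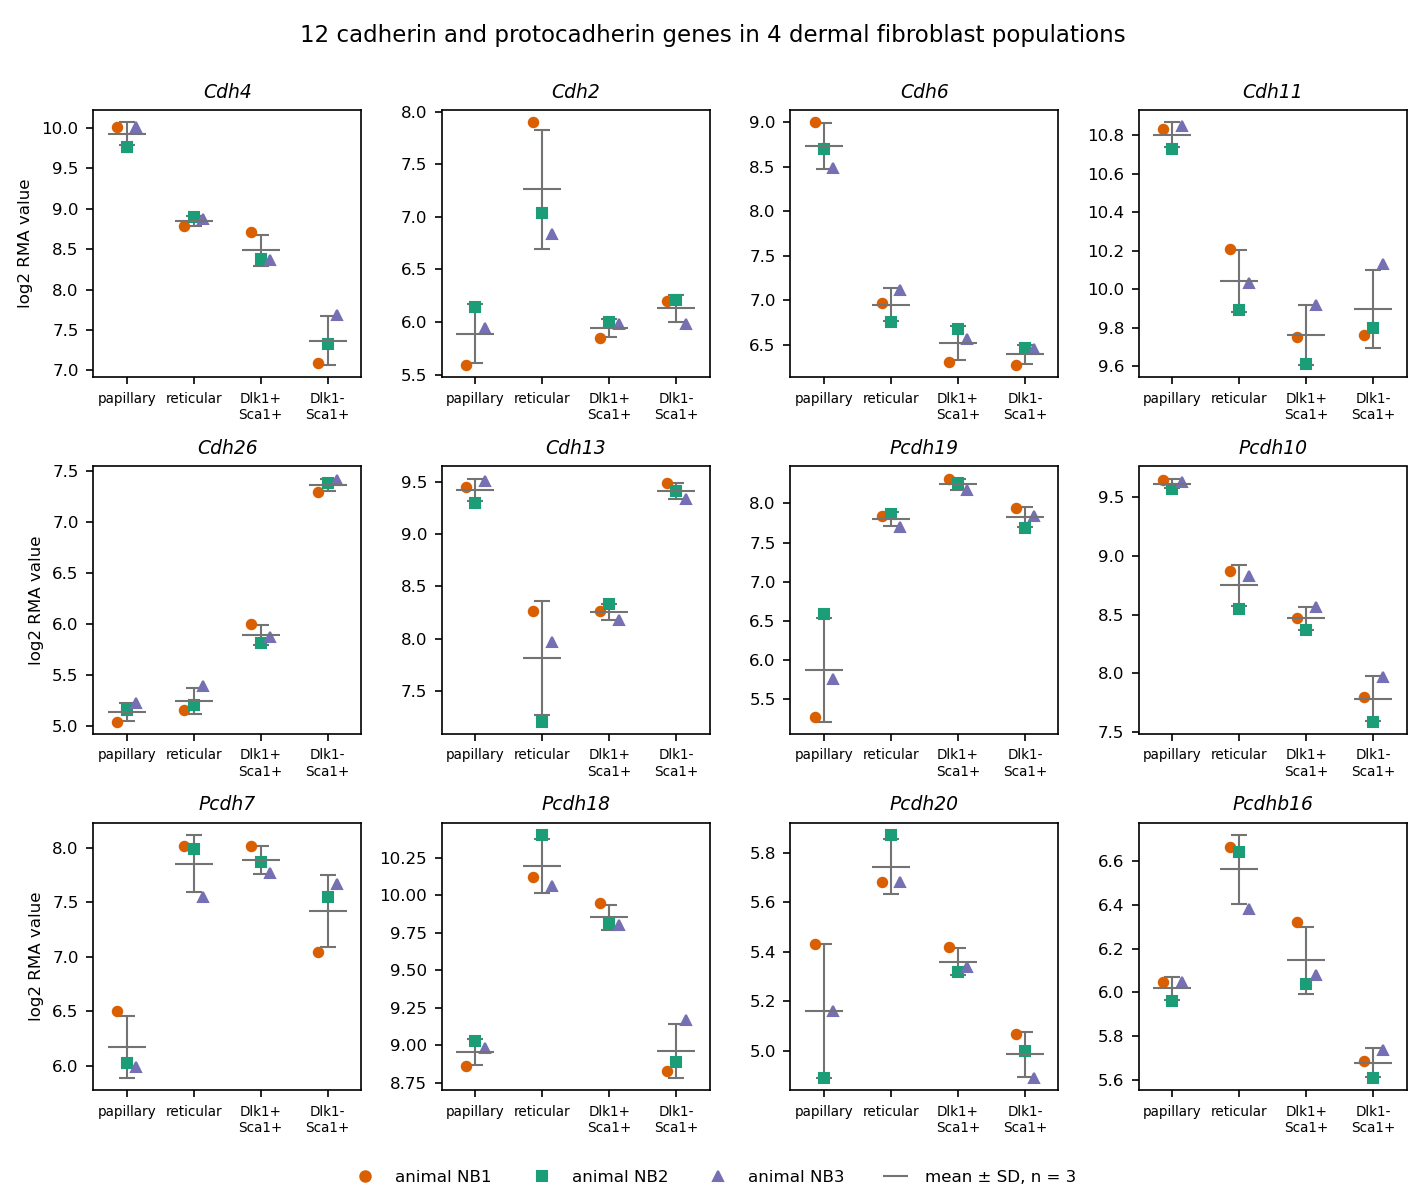
Log2 level per array of the members with the largest called differences, in panels by gene, with a point for each animal and a bar for the mean and SD of the 3 arrays of each population. The papillary arrays are highest for Cdh4, Cdh6, Cdh11 and Pcdh10 and lowest for Pcdh7 and Pcdh19, reticular arrays are highest for Cdh2, and Dlk1- Sca1+ arrays are highest for Cdh26.

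Delta protocadherins differed the most often of any class, with members called in opposite directions. Pcdh19, an X-linked gene known from a familial epilepsy, was at 5.27, 6.58 and 5.76 in papillary cells, 7.84, 7.87 and 7.70 in reticular cells, 8.31, 8.26 and 8.17 in Dlk1+ Sca1+ cells and 7.94, 7.69 and 7.84 in Dlk1- Sca1+ cells. Papillary arrays were all lower than the other 9. Papillary cells were 3.82-fold below reticular cells (-1.93 ± 0.23 SE, adjusted p = 3.08e-05), 5.19-fold below Dlk1+ Sca1+ cells (adjusted p = 3.95e-06) and 3.87-fold below Dlk1- Sca1+ cells (adjusted p = 2.61e-05). The Dlk1+ Sca1+ arrays lay above the reticular ones without a call (0.44, adjusted p = 0.349).

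Pcdh7, a delta protocadherin that binds the SET protein, was at 6.50, 6.02 and 5.99 in papillary cells, 8.02, 7.99 and 7.55 in reticular cells, 8.02, 7.87 and 7.77 in Dlk1+ Sca1+ cells and 7.04, 7.55 and 7.67 in Dlk1- Sca1+ cells. The papillary arrays were again below all others. Reticular arrays overlapped those of both Sca1+ populations, and the Dlk1- Sca1+ arrays lay below the Dlk1+ Sca1+ ones without a call. Papillary cells were 3.21-fold below reticular cells (-1.68 ± 0.18 SE, adjusted p = 1.28e-05), 3.29-fold below Dlk1+ Sca1+ cells (adjusted p = 8.93e-06) and 2.38-fold below Dlk1- Sca1+ cells (adjusted p = 0.000165).

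Pcdh18, which binds the adaptor Dab1, followed the Dlk1 gate the other way from Cdh13. It was at 10.12, 10.40 and 10.06 in reticular cells and 9.95, 9.81 and 9.80 in Dlk1+ Sca1+ cells, and at 8.86, 9.03 and 8.98 in papillary cells and 8.83, 8.89 and 9.17 in Dlk1- Sca1+ cells. Arrays of the Dlk1+ populations lay above all arrays of the other two, which overlapped. Papillary cells were 2.36-fold below reticular cells (-1.24 ± 0.11 SE, adjusted p = 2.21e-06) and 1.86-fold below Dlk1+ Sca1+ cells (adjusted p = 3.24e-05), and Dlk1- Sca1+ cells were 2.35-fold and 1.85-fold below them (adjusted p = 5.91e-06 and 0.000238). Papillary minus Dlk1- Sca1+ cells was -0.01, with a 95% confidence interval of -0.24 to 0.23. With the median of the gene's probe sets, papillary minus Dlk1+ Sca1+ cells shrank from -0.90 to -0.42 and was still called (adjusted p = 0.00255).

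Pericyte and smooth muscle genes did not share 1 order. Kcnj8 followed the Dlk1 gate, at 7.72 to 8.35 in reticular, 7.75 to 8.23 in Dlk1+ Sca1+, 5.40 to 5.69 in Dlk1- Sca1+ and 4.62 to 4.82 in papillary cells. The mean of Acta2 was 9.47 in Dlk1- Sca1+, 9.26 in reticular, 8.83 in Dlk1+ Sca1+ and 7.43 in papillary cells, where it was called lower than in each of the others. The mean of Mcam was 6.29 in Dlk1+ Sca1+ cells, below 7.01 in reticular cells (adjusted p = 0.0166), and 6.57 and 6.59 in papillary and Dlk1- Sca1+ cells. Rgs5 and Myh11, which mark pericytes and smooth muscle, were highest on the NB2 reticular array (9.52 and 9.35), where Pcdh18 was also at its highest, and next on the NB2 Dlk1+ Sca1+ array (8.98 and 8.37), where it was not the highest of its population. The part of such cells in the levels of Pcdh7, Pcdh18 and Pcdh19 was not tested.

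Pcdh10 (OL-protocadherin, which engages actin regulators) ran the same way as Cdh4. It was at 9.65, 9.57 and 9.63 in papillary cells, 8.87, 8.55 and 8.83 in reticular cells, 8.47, 8.37 and 8.57 in Dlk1+ Sca1+ cells and 7.80, 7.59 and 7.97 in Dlk1- Sca1+ cells. Only reticular and Dlk1+ Sca1+ arrays overlapped. Papillary cells were 1.82-fold above reticular cells (0.87 ± 0.11 SE, adjusted p = 4.6e-05), 2.21-fold above Dlk1+ Sca1+ cells (adjusted p = 3.11e-06) and 3.56-fold above Dlk1- Sca1+ cells (adjusted p = 4.21e-08). Dlk1- Sca1+ cells were lower than reticular cells (-0.96, adjusted p = 4.15e-05) and than Dlk1+ Sca1+ cells (-0.68, adjusted p = 0.0016). With the median of the gene's probe sets in place of the brightest, these 5 differences shrank to 0.44, 0.58, 0.81, -0.37 and -0.22, in that order, and the last was no longer called (adjusted p = 0.187; 1.42e-05 to 0.0124 for the others). Dlk1+ Sca1+ minus reticular cells passed only with the animal as a block (-0.28, adjusted p = 0.163 without it and 0.0295 with it).

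Pcdh9 and Pcdh17 showed smaller differences. Pcdh17 was lower in papillary cells (mean 4.41 ± 0.06 SD, n = 3) than in reticular cells (4.86; difference -0.46, adjusted p = 0.00216) and Dlk1+ Sca1+ cells (4.80; -0.39, adjusted p = 0.00583, and -0.24 with the median of its probe sets). Pcdh9 was lower in Dlk1- Sca1+ (mean 7.20) than in reticular cells (7.81; -0.60 ± 0.13 SE, adjusted p = 0.00569), with an adjusted p of 0.0512 without NB1 and 0.102 without NB3. The other delta members Pcdh1 (4.21 to 4.44), Pcdh8 (3.92 to 4.19) and Pcdh11x (4.52 to 4.78) were dim on every array and called in no comparison, and Pcdh8 passed for papillary minus Dlk1+ Sca1+ cells once the animal was a block (0.19, adjusted p = 0.0416).

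Among other non-clustered protocadherins, Pcdh20 was at 5.68, 5.87 and 5.68 in reticular cells, 5.43, 4.89 and 5.16 in papillary cells, 5.42, 5.32 and 5.34 in Dlk1+ Sca1+ cells and 5.07, 5.0 and 4.89 in Dlk1- Sca1+ cells. The reticular arrays were the highest. It was lower in papillary (-0.58, adjusted p = 0.00193) and in Dlk1- Sca1+ cells (-0.76, adjusted p = 0.000525) than in reticular cells, and the papillary call was lost without NB2 (-0.39, adjusted p = 0.0583). With the median of the gene's probe sets these differences were -0.24 (adjusted p = 0.0501) and -0.36 (adjusted p = 0.0087). In Dlk1+ Sca1+ cells it was lower only with the animal as a block (-0.38, adjusted p = 0.0464 against 0.0656). A second probe set of Pcdh20 was not called and had the opposite sign (0.11 for papillary minus reticular cells), so the gene's direction rests on 1 probe set. Pcdh12 (6.02 to 6.23, an endothelial protocadherin) and Pcdh15 (4.45 to 4.83, a part of the hair-cell tip link) were not called.

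Clustered protocadherins were mostly dim, and 5 of the 6 beta genes called in any comparison had their highest mean in reticular cells. Of the 22 beta genes, 5 were called between Dlk1- Sca1+ and reticular cells, all lower in Dlk1- Sca1+ cells, where 8.8% of all genes were called lower, with a median difference of -0.11 and 17 of 22 differences below 0. Between papillary and reticular cells 4 were called, all lower in papillary cells (median -0.08), where 13.6% of all genes were called lower. Beta-cluster genes are closely related single-exon copies, so a probe set may also catch a neighbour's transcript.

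Pcdhb16 had the clearest profile, at 6.66, 6.64 and 6.38 in reticular cells, 6.05, 5.96 and 6.05 in papillary cells, 6.32, 6.04 and 6.08 in Dlk1+ Sca1+ cells and 5.69, 5.61 and 5.74 in Dlk1- Sca1+ cells. Reticular arrays were the highest and Dlk1- Sca1+ arrays the lowest, each apart from the rest. Dlk1- Sca1+ cells were 1.84-fold below reticular cells (-0.88, adjusted p = 3.16e-05), and papillary cells were below them by 0.54 on the log2 scale (-0.54 ± 0.10 SE, adjusted p = 0.0008). Its smaller calls did not all last when arrays were left out. Dlk1+ Sca1+ minus reticular cells (-0.41, adjusted p = 0.0174) had an adjusted p of 0.272 without NB2 and 0.0862 without NB3, and of 0.0677 to 0.0774 without the NB1 or NB2 reticular or the NB2 or NB3 Dlk1+ Sca1+ array. Papillary minus Dlk1- Sca1+ cells (0.34, adjusted p = 0.0178) had 0.0625 to 0.113 without any 1 animal and 0.056 to 0.0641 without the NB1 or NB3 papillary or the NB2 Dlk1- Sca1+ array. Dlk1- Sca1+ minus Dlk1+ Sca1+ cells (-0.47, adjusted p = 0.00896) had 0.0558 to 0.104 without any 1 animal. With the median of the gene's probe sets, papillary and Dlk1- Sca1+ cells differed by 0.01 (adjusted p = 0.972) and Dlk1- Sca1+ and Dlk1+ Sca1+ cells by -0.07 (adjusted p = 0.725), so neither was called. The differences from reticular cells shrank from -0.88 to -0.36 in Dlk1- Sca1+ cells (adjusted p = 0.00342) and from -0.54 to -0.35 in papillary cells (adjusted p = 0.0022). The gene's other probe sets alone were not called.

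Pcdhb9 was also highest in reticular cells, with a mean of 5.06 ± 0.24 (SD, n = 3) against 4.32 ± 0.10 in papillary, 4.36 ± 0.23 in Dlk1- Sca1+ and 4.40 ± 0.21 among Dlk1+ Sca1+ cells. The differences from reticular cells were -0.74 for papillary (adjusted p = 0.00147), -0.66 for Dlk1+ Sca1+ (adjusted p = 0.0116) and -0.70 for Dlk1- Sca1+ cells (adjusted p = 0.00387). Without NB3 their adjusted p-values were 0.0503, 0.216 and 0.0665, and without NB2 the Dlk1+ Sca1+ and Dlk1- Sca1+ differences had 0.109 and 0.0528. The Dlk1+ Sca1+ call was also lost without the NB3 reticular array (0.0547) or the NB2 Dlk1+ Sca1+ array (0.0525). The muscle and pericyte sums given with Cdh2 were highest in reticular arrays here too, and their part was not tested.

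Pcdhb19 (mean 8.24 in reticular, 8.00 in Dlk1+ Sca1+, 7.82 in papillary and 7.51 in Dlk1- Sca1+ cells) was lower in Dlk1- Sca1+ than in reticular cells (-0.73, adjusted p = 0.00106) in every fit with an array or animal left out. Pcdhb21 (6.96, 6.60, 6.56 and 6.30 in the same order) was lower there as well (-0.66, adjusted p = 0.00188), though not without NB2 (adjusted p = 0.0554). Their papillary calls against reticular cells (-0.42, adjusted p = 0.023, and -0.39, adjusted p = 0.0276) were lost without NB3 (0.135 and 0.158) and in fits without single arrays of either population, where that of Pcdhb19 was -0.26 without the NB2 papillary array (adjusted p = 0.0903). Pcdhb3 was lower in Dlk1- Sca1+ than in reticular cells (-0.34, adjusted p = 0.0314), and not without NB2 (0.212) or NB3 (0.176). Pcdhb22 was highest in Dlk1+ Sca1+ cells on average (6.43), above papillary cells (papillary minus Dlk1+ Sca1+ -0.50, adjusted p = 0.0438) and Dlk1- Sca1+ cells (-0.61, adjusted p = 0.0487, with overlapping arrays). Both calls were lost in most fits that left out 1 array. Pcdhb19 was also lower in Dlk1- Sca1+ than in Dlk1+ Sca1+ cells (-0.49, adjusted p = 0.0282), a call lost without any 1 array of either population (0.058 to 0.104). All 3 of these calls were lost without NB1 (0.236, 0.431 and 0.201). The 16 other beta genes, at 3.87 to 6.17 over the arrays, were called in no comparison, although Pcdhb18 passed as lower in Dlk1- Sca1+ than in reticular cells once the animal was a block (-0.22, adjusted p = 0.042). Both alpha genes, Pcdha1 (3.88 to 4.14) and Pcdha10 (4.86 to 5.31), were not called by limma, and neither had an unadjusted p under 0.05 in any comparison.

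Counted by population, 4 members were called highest in papillary cells in all 3 of their comparisons (Cdh4, Cdh6, Cdh11 and Pcdh10; 7.97% of all genes) and 2 lowest (Pcdh7 and Pcdh19; 7.29% of all genes). Reticular cells were highest for Cdh2, Pcdhb9 and Pcdhb16, which is 5.45% of members where 1.85% of all genes were called, and lowest for none (1.06% of all genes by limma; 1 member, Cdh13, at an unadjusted p under 0.05). Dlk1- Sca1+ cells were highest for Cdh26 (1.54% of all genes) and lowest for Cdh4, Pcdh10 and Pcdhb16, or 5.45% of members where 1.09% of all genes were called. Both of these counts of 3 changed when single libraries were left out. Only Cdh2 was still called highest in reticular cells without NB2, without NB3 or without the NB2 Dlk1+ Sca1+ array, and 2 members were without the NB1, NB2 or NB3 reticular or the NB3 Dlk1+ Sca1+ array. Pcdhb16 was no longer called lowest in Dlk1- Sca1+ cells without any 1 animal, nor without the NB1 or NB3 papillary or the NB2 Dlk1- Sca1+ array, while Pcdhb19 joined Cdh4 and Pcdh10 without NB2. With the median of a gene's probe sets the members lowest there were Cdh4 and Pcdh18. Dlk1+ Sca1+ cells were neither highest nor lowest for any member by limma, nor at an unadjusted p under 0.05 (0.579% and 0.462% of all genes). With the animal as a block, Pcdh20 joined the members highest in reticular cells and Pcdhb19 those lowest in Dlk1- Sca1+ cells.

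Catenins, the cytoplasmic partners of classical cadherins, varied unequally. Population means were at most 0.20 apart for beta-catenin and p120-catenin and 0.86 apart for plakoglobin. Ctnnb1 (beta-catenin) was at 11.56 to 11.84 and Ctnnd1 (p120-catenin) at 10.87 to 11.17 over the 12 arrays, and neither was called in any comparison, although papillary minus Dlk1+ Sca1+ cells passed for Ctnnb1 with the animal as a block (0.19, adjusted p = 0.0324 against 0.0502). Ctnna1 (alpha-catenin, the link to actin) was at 9.92 to 10.37 and was higher in Dlk1- Sca1+ cells than in the other 3 populations (papillary minus Dlk1- Sca1+ -0.27, adjusted p = 0.013; 0.26 over reticular cells, adjusted p = 0.0235; 0.27 over Dlk1+ Sca1+ cells, adjusted p = 0.0363). All 3 calls were lost without the NB1 Dlk1- Sca1+ array (adjusted p = 0.0694, 0.112 and 0.168) and without any 1 animal (0.0701 to 0.236). Jup (plakoglobin, shared with desmosomes) was at 8.81 on that array and 6.95 to 8.08 elsewhere. Its papillary minus Dlk1- Sca1+ difference of -0.86 (adjusted p = 0.0349) was -0.46 (adjusted p = 0.0884) without it, and the part of keratinocyte RNA was not tested further. Ctnnal1 (6.48 to 7.62) was below the Dlk1+ Sca1+ level in papillary cells (-0.69, adjusted p = 0.018), with an adjusted p of 0.0543, 0.0806 and 0.0523 without the NB1 or NB2 Dlk1+ Sca1+ or the NB2 papillary array. The neural catenins Ctnna2 (4.27 to 4.60) and Ctnnd2 (4.39 to 5.01) and the heart and testis form Ctnna3 (3.97 to 4.56) were dim and not called.

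Over the 20 catenin and junction genes, 4 were called between papillary and reticular cells, all higher in papillary cells. Of all genes, 13.9% were called higher in papillary cells there. Against Dlk1+ Sca1+ cells, 5 were higher and 1 lower in papillary cells, where 28% of all genes were called in either direction. Against Dlk1- Sca1+ cells, 4 were higher and 3 lower, where 26.4% of all genes were called in either direction. The median difference of the list was 0.02 against Dlk1+ Sca1+ cells and -0.03 against Dlk1- Sca1+ cells, beside 0 over all genes in both. Magi1 (a scaffold protein of cell junctions) was at 9.60, 9.36 and 9.36 in papillary cells and at 6.98 to 7.88 elsewhere. It was higher in papillary cells by 2.04 ± 0.14 (SE) over reticular (4.12-fold, adjusted p = 2.56e-07), 2.34 over Dlk1+ Sca1+ (adjusted p = 4.85e-08) and 1.68 over Dlk1- Sca1+ cells (adjusted p = 1.24e-06). Nectin3, an immunoglobulin-type adhesion protein that works beside cadherins, was at 11.93, 11.96 and 11.85 in papillary, 11.36, 11.35 and 11.29 in reticular, 11.10, 10.99 and 10.93 in Dlk1+ Sca1+ and 11.05, 10.99 and 10.95 in Dlk1- Sca1+ cells, with papillary cells higher by 0.58, 0.91 and 0.92 (adjusted p = 3.54e-05, 4.75e-07 and 4.54e-07). Ptprm, a receptor phosphatase found with cadherins, was higher in papillary cells by 0.79, 0.71 and 0.79 against the same populations in that order (adjusted p = 2.5e-05, 5.61e-05 and 2.23e-05). The papillary arrays were apart from all others for Magi1, Nectin3 and Ptprm.

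**Figure D5:**
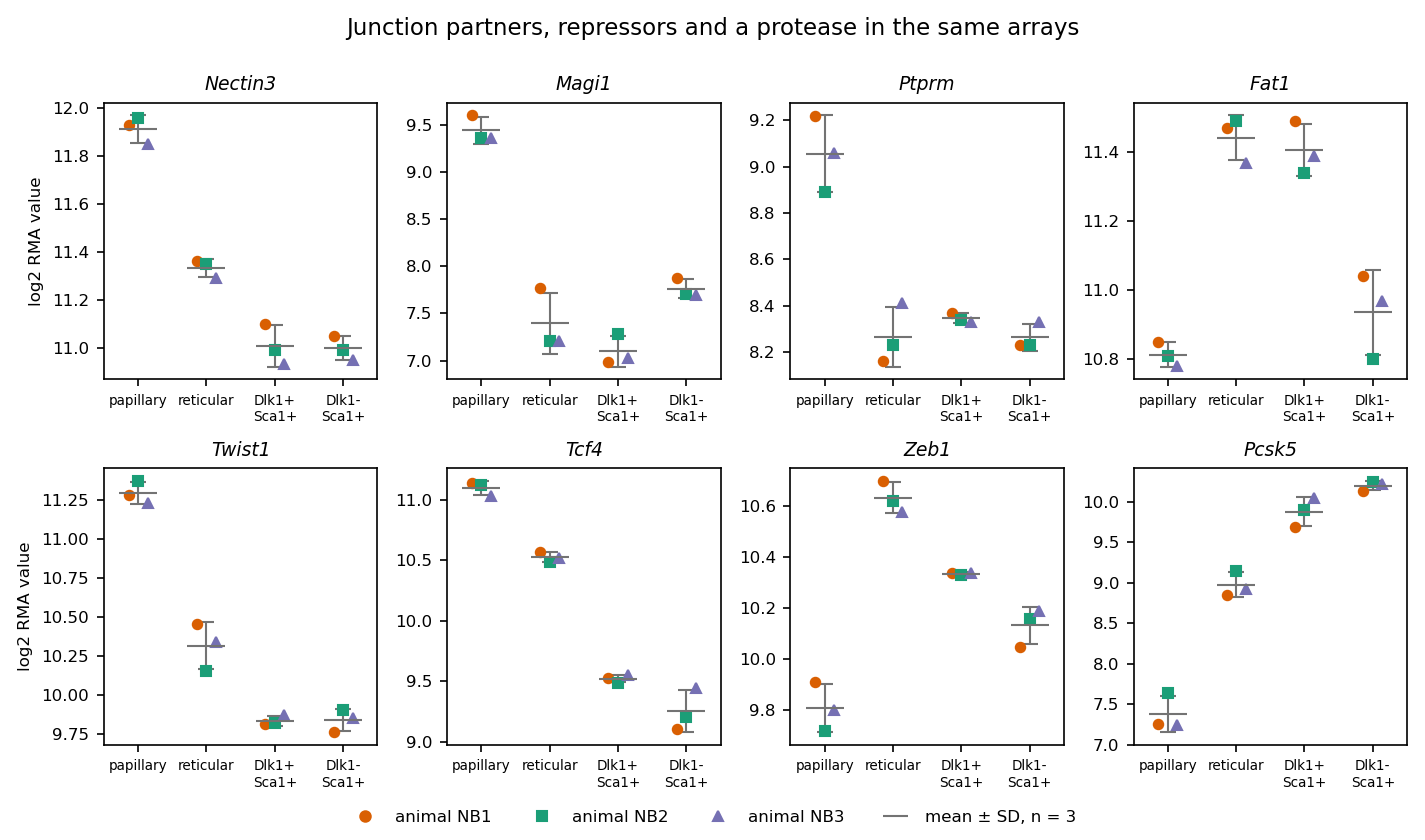
Log2 level per array of 8 genes from the junction, cadherin-superfamily, repressor and protease lists, with a point for each animal and a bar for the mean and SD of the 3 arrays of each population. Papillary arrays are highest for Nectin3, Magi1, Ptprm, Twist1 and Tcf4 and lowest for Zeb1 and Pcsk5.

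Of 20 measured genes from the wider cadherin superfamily (25 were listed), 1 was called higher and 4 lower in papillary than in reticular cells, where 13.9% and 13.6% of all genes were, and 4 were called between Dlk1- Sca1+ and reticular cells, all lower in Dlk1- Sca1+ cells, where 8.8% of all genes were. Fat1 (a giant cadherin of cell edges) was at 10.85, 10.81 and 10.78 in papillary, 11.47, 11.49 and 11.37 in reticular, 11.49, 11.34 and 11.39 in Dlk1+ Sca1+ and 11.04, 10.80 and 10.97 in Dlk1- Sca1+ cells. Its arrays split into the Dlk1+ populations above and the others below, as for Pcdh18, with papillary cells lower than reticular cells by 0.63 (-0.63 ± 0.08 SE, adjusted p = 4.6e-05) and Dlk1- Sca1+ cells lower than reticular cells (-0.51, adjusted p = 0.000558). Fat3 was lower in papillary than in reticular cells (-1.03 ± 0.22 SE, adjusted p = 0.00326). Cdhr4, a cadherin-related gene, was lower in papillary than in reticular (-0.84, adjusted p = 3.32e-06), Dlk1+ Sca1+ (-0.76, adjusted p = 6.72e-06) and Dlk1- Sca1+ cells (-0.50, adjusted p = 0.000285). Clstn1 (calsyntenin 1, a cargo adaptor with cadherin repeats) was higher in papillary cells by 0.35, 0.60 and 0.56 against the same populations (adjusted p = 0.00126, 1.36e-05 and 2.94e-05).

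Known transcriptional repressors of the E-cadherin gene were called in most cases, while Cdh1 itself was between 4.06 and 5.09 on 11 of the 12 arrays. Of 9 measured repressors (10 were listed), 8 were called by the F-test, where 35.7% of all genes were. Papillary cells were higher in 6 and lower in 2 against reticular cells, where 13.9% and 13.6% of all genes were, with list medians of 0.57, 0.73 and 0.65 against reticular, Dlk1+ Sca1+ and Dlk1- Sca1+ cells. Twist1 (a mesenchymal E-box factor) was at 11.28, 11.37 and 11.23 in papillary, 10.45, 10.15 and 10.34 in reticular, 9.81, 9.82 and 9.87 in Dlk1+ Sca1+ and 9.76, 9.90 and 9.85 in Dlk1- Sca1+ cells. Papillary arrays were the highest, reticular arrays came next, and the pre-adipogenic populations overlapped. Papillary cells were higher by 0.98 ± 0.08 (SE) over reticular (adjusted p = 1.58e-06) and by 1.46 over both other populations (adjusted p = 2.77e-08 and 3.22e-08).

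Tcf4 (E2-2, the E-protein partner of Twist) took 4 separate levels, at 11.14, 11.12 and 11.03 in papillary, 10.57, 10.49 and 10.52 in reticular, 9.53, 9.49 and 9.55 in Dlk1+ Sca1+ and 9.11, 9.21 and 9.45 in Dlk1- Sca1+ cells. Its means ran in the order of those of Cdh4 and Pcdh10, as did those of the fibroblast gene Lum (12.25, 11.79, 11.56 and 11.24). The share of all genes in this order or its reverse was not computed, and a link was not tested. For Tcf4, papillary cells exceeded Dlk1- Sca1+ cells by 1.84 (3.58-fold, adjusted p = 4.3e-09), and Dlk1- Sca1+ cells were below reticular cells (-1.27, adjusted p = 5.23e-07). Snai2 (Slug) and Twist2 were also higher in papillary than in reticular cells (0.82, adjusted p = 2.2e-06, and 0.95, adjusted p = 1.51e-06). Zeb1 went the other way, at 9.91, 9.72 and 9.80 in papillary and 10.70, 10.62 and 10.58 in reticular cells (-0.82 ± 0.07 SE, adjusted p = 2.27e-06). Zeb2, its paralogue, was higher in papillary than in reticular cells (0.72, adjusted p = 3.62e-05).

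Of 13 measured proteases that process or shed cadherins (14 were listed), 6 were called by the F-test, where 35.7% of all genes were. Pcsk5 (a proprotein convertase) was at 7.26, 7.64 and 7.24 in papillary, 8.85, 9.15 and 8.93 in reticular, 9.69, 9.90 and 10.05 in Dlk1+ Sca1+ and 10.14, 10.25 and 10.22 in Dlk1- Sca1+ cells. Each population was apart from the others, and the order was the reverse of that of Cdh4. Papillary cells were 3.02-fold below reticular (-1.60 ± 0.12 SE, adjusted p = 6.3e-07), 5.66-fold below Dlk1+ Sca1+ (adjusted p = 7.25e-09) and 7.08-fold below Dlk1- Sca1+ cells (adjusted p = 2.64e-09). Furin, the convertase that cuts classical cadherin precursors, was lower in papillary than in reticular (-0.56, adjusted p = 0.000276) and Dlk1- Sca1+ cells (-0.67, adjusted p = 5.72e-05). Mmp3 (stromelysin 1) was at 7.37, 6.62 and 6.26 in Dlk1+ Sca1+ cells and 5.22 to 5.91 elsewhere, with papillary cells lower than Dlk1+ Sca1+ cells (-1.38 ± 0.21 SE, adjusted p = 0.000226). Over all genes of these lists, 54 of 91 called pairs of a gene and a comparison were called in every fit that left out an array or an animal.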

How the data were processed

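Transcript levels of 12 arrays were used, 3 per population. The deposited values are on a log2 scale and come from 1 table. Per the submitters' processing notes the authors used RMA and the affy package, with versions not given in the sources used here. For arrays, the number of samples limits the precision. Of 45141 probe sets, 104 controls were left out, 28898 had 1 gene symbol in the platform annotation, 551 had several (2 of them with a member's symbol, left out), and 15588 (34.61% of the rest) are unnamed here. All 12 arrays were fitted together over 17097 genes with limma 3.58.1 in R 4.3.3, with 1 mean for each population and 8 residual and 4.475 prior degrees of freedom. All 6 pairs of populations were contrasted, adjusted by Benjamini-Hochberg within each, and a moderated F-test was adjusted likewise. The fit was tested on simulated data. Members and gene lists were chosen with earlier results of these data known.

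Every member may be named. Values of each array are given for the members with the largest called differences without overlap of arrays and for Cdh1, Cdh2, Cdh3, Cdh5, Cdh11, Cdh13 and Cdh15. From each list of related genes, up to 4 called genes per comparison are named by size, and all catenins. Gene lists for keratinocytes, endothelium, skeletal muscle, pericytes and smooth muscle, Schwann cells and melanocytes, immune cells and dermal fibroblasts served as checks. The Schwann and melanocyte sum was 2260 on the NB1 Dlk1- Sca1+ array, and the immune sum was 572 to 879.1 on all arrays. The labels give each array a biological replicate (NB1 to NB3), and the series' design text describes sorting from 3 littermates, so arrays of 1 number were taken as 1 animal. Deviations from the population means correlated across genes at 0.266 on average within an animal (0.086 to 0.432, with 17 of 18 pairs above 0.1). The average was -0.132 over the 36 pairs of arrays that differed in both animal and population. Deviations of the 3 arrays of a population sum to 0, which largely fixes this negative value, so it adds no support. The alternatives were the animal as a block, repeated quantile normalization, median centring, the median of a gene's probe sets, only genes above the median level, and each array or animal left out.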

Additional observations from a re-analysis of the deposited data

How the results depend on the processing

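No called pair of a member and a comparison changed sign in any of 20 settings, and 42 of 60 were called in all of them, 50 in every fit that left out 1 array. With the animal as a replicate block, members called numbered 22 by the F-test, 17, 14 and 11 for papillary against reticular, Dlk1+ Sca1+ and Dlk1- Sca1+ cells, 6 for Dlk1+ Sca1+ and 15 for Dlk1- Sca1+ against reticular cells, and 8 between the pre-adipogenic populations. The block took no call away from a member. Over all genes it also raised the share called, to 33.7%, 33.8% and 32.1% in the papillary comparisons in that order. The share became 12.5% and 24% for Dlk1+ Sca1+ and Dlk1- Sca1+ against reticular cells. Between the pre-adipogenic populations it became 11.1%. With the median of a gene's probe sets, 7 rather than 4 members were called between Dlk1+ Sca1+ and reticular cells. Of all genes, 8.35% rather than 8.43% were called there. With only genes above the median level, 12 members were tested, and 10 were called by the F-test, 9 in papillary against reticular cells, 7 and 5 in Dlk1- Sca1+ against reticular and Dlk1+ Sca1+ cells, and 8 placements as highest or lowest remained in number. Between Dlk1+ Sca1+ and reticular cells limma then called 0 of the 12, with 6 at an unadjusted p under 0.05. The members called there in the main fit (Cdh2, Cdh26, Pcdhb9 and Pcdhb16) lie below the median level and were not tested. Of all genes above it, 15.8% were called in that comparison. For papillary against reticular cells the share was 46.8%. For Dlk1- Sca1+ against reticular and Dlk1+ Sca1+ cells it was 33.1% and 15.1%. Leaving out an array or animal gave 13 to 18 by the F-test, 12 to 15, 10 to 12 and 7 to 9 for the papillary comparisons in the order above, 2 to 6 and 10 to 14 for Dlk1+ Sca1+ and Dlk1- Sca1+ against reticular cells, 4 to 8 between the pre-adipogenic populations and 10 to 15 placements. Over all genes the share called in these fits was 19% to 27.8% for papillary against reticular cells. For Dlk1+ Sca1+ against reticular cells it was 2.91% to 8.79%. Papillary against Dlk1+ Sca1+ and Dlk1- Sca1+ cells gave 20.1% to 28.5% and 18.2% to 26.8%. Dlk1- Sca1+ against reticular cells gave 9.83% to 18.2%, and the pre-adipogenic populations gave 3.11% to 7.64%. With 3 animals and dim signals for most members, small differences could not be measured.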
